A study of Mus musculus with 6 samples.

Results

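The genes described are the nuclear alanine and cysteine transfer RNA (tRNA) genes, measured in exosomes of cultured mouse skin cells. Every row of the count files whose name began with tRNA-Ala- or tRNA-Cys- was taken. There were 109 such rows, 48 of alanine and 61 of cysteine, among 471 tRNA rows and 16310 rows in all. The study sequenced small RNA of exosomes, a kind of vesicle that cells shed, with 3 libraries for each of 2 cultured cell types, the epidermal stem cell (ESC) and the dermal fibroblast (Fb). The comparison addressed how the small RNA content of the 2 kinds of exosome differed.

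The ESC came from dorsal skin of C57BL/6 mice aged 3 weeks, were selected by fast adhesion to collagen IV and grew in a keratinocyte medium free of serum. The Fb came from dorsal skin of db/db mice aged 14 weeks, which carry a leptin receptor mutation, and grew in DMEM with 10% fetal bovine serum before 2 days without serum. The protocol names db/db for the Fb, while the strain label reads C57BL/6 for all 6 libraries. Both cell types were primary cultures, and cell type, donor strain, age and medium changed together, so they cannot be told apart here. The labels call the libraries biological replicates without tying any to an animal, so each p-value speaks only of the spread among these libraries.

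A tRNA carries 1 amino acid to the ribosome and reads the codon through its anticodon, the part of the name after the amino acid. In a name such as tRNA-Ala-AGC-3-1 the next number marks the isodecoder, a mature tRNA sequence that several genes may share, and the last number marks the gene copy. The AGC anticodon of alanine tRNA is read with inosine after deamination of its first base, whereas cysteine tRNA uses GCA. Cells under stress cut tRNAs in the anticodon loop, and the 5′ fragments of alanine and cysteine tRNAs are known for a run of G at their start and for slowing translation. Exosomes carry many such fragments, and a small RNA library reads fragments more readily than whole tRNAs.

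RefSeq (GRCm38.p6) lists 33 alanine and 56 cysteine tRNA genes by anticodon, each 70 to 73 bases long. Of the cysteine genes 48 lie on chromosome 6 between 47978997 and 48363603, and the others lie on chromosomes 11, 9 and 17. The alanine genes are led by 12 on chromosome 13, between 21222586 and 23438768, and 12 on chromosome X, between 136357602 and 136590436. Its symbols do not map to the row names, so no copy is placed on its own.

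Mitochondria encode alanine and cysteine tRNAs of their own, mt-Ta and mt-Tc. Their sequences are shown because they use the anticodons TGC and GCA, as nuclear alanine and cysteine tRNAs also do, but belong to a separate genome and have rows of their own. Both genes lie on the minus strand of chromosome M in GENCODE M21 (GRCm38), mt-Ta at 5018 to 5086 and mt-Tc at 5192 to 5257, each a tRNA gene of a single exon. The sequences run 5′ to 3′ along the RNA in DNA letters, with the anticodon in capitals.
mt-Ta: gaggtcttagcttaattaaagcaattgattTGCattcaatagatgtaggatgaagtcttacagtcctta
mt-Tc: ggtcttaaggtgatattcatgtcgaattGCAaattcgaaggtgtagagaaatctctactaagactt

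The libraries held 9894485 to 11149046 assigned reads in ESC and 6914504 to 8691350 in Fb exosomes. tRNA rows took 78.7% to 79.9% of them in ESC and 80.5% to 89.6% in Fb, and glycine and glutamate tRNAs together took 99.1% to 99.4% of tRNA reads in ESC against 81.3% to 82.6% in Fb. Of mature miRNA reads, 5 epithelial miRNAs summed to 5.50% to 6.92% in ESC and 0.642% to 1.36% in Fb, and 4 mesenchymal miRNAs to 0.0128% to 0.0137% in ESC and 8.31% to 11.0% in Fb. A list of 5 blood and serum miRNAs summed to 0.000866% to 0.0309% in ESC and 0.0410% to 1.14% in Fb, with miR-142a-3p at 0 in all 6 libraries. These levels moved with the groups, and their part in the results was not tested.

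Alanine and cysteine tRNAs were rare in both kinds of exosome, and their order switched between them. Cysteine reads outnumbered alanine reads in each ESC library, and alanine reads outnumbered cysteine reads in each Fb library. Alanine tRNA held a larger share of tRNA reads in every Fb library than in any ESC library, whereas the mean cysteine share was lower in Fb, with overlapping groups. In pooled vesicle RNA, a change in how many vesicles carry an RNA and a change in how much each carries cannot be told apart.

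Alanine rows received 1049, 1497 and 571 estimated reads in ESC replicates 1, 2 and 3, and 1585, 5355 and 2552 in Fb replicates 1, 2 and 3. The same order of libraries is kept below. Per 1000000 tRNA reads (the unit called tRNA-RPM below) these were 133, 168 and 70.0 in ESC and 221, 765 and 437 in Fb. All 3 Fb libraries lay above all 3 ESC libraries, and the means were 124 ± 49.8 (SD, n = 3) and 474 ± 274 (SD, n = 3), 3.83-fold higher in Fb. An exact two-sided permutation test gave p = 0.1, the smallest that 3 against 3 libraries allow, and 0.128 after Benjamini-Hochberg adjustment over 23 tRNA groups. Of those 23 groups 73.9% were higher in every Fb library, so the alanine pattern was also that of most tRNAs. Scaled to 1000000 assigned reads (assigned-RPM), alanine tRNA was at 98.4 ± 40.1 in ESC and 395 ± 210 in Fb (SD, n = 3), a ratio of 4.01, again with no overlap, as for 73.9% of the 23 groups on that scale.

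Cysteine rows received 1846, 2249 and 764 estimated reads in ESC and 862, 353 and 196 in Fb. These were 235, 253 and 93.5 tRNA-RPM in ESC and 120, 50.5 and 33.5 in Fb. The groups overlapped in 1 place, Fb replicate 1 lying above ESC replicate 3. The means were 194 ± 87.2 in ESC and 68.1 ± 46.0 in Fb (SD, n = 3), 2.84-fold higher in ESC, which did not pass an exact two-sided permutation test (p = 0.2, adjusted p = 0.242). Scaled to all assigned reads they were 154 ± 70.0 and 58.9 ± 42.8 assigned-RPM (SD, n = 3), with overlapping groups and the same exact permutation p = 0.2. Without Fb replicate 1 the Fb over ESC ratio of tRNA-RPM was 0.217, against 0.352 with it. That library had epithelial and mesenchymal shares of 0.642% and 8.31% of mature miRNA reads, each the lowest of the Fb libraries. It also had the fewest mature miRNA reads, 49019, and the highest tRNA share of assigned reads, 89.6%. Whether any of these bears on its cysteine level was not tested.

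Among the 22 tRNA groups with reads in Fb exosomes, cysteine had the lowest Fb over ESC ratio. The other 20 had a median ratio of 11.3, with 19 above 1 and only glycine below. Alanine stood 14th by ratio among the 23 groups. By anticodon, cysteine GCA stood 49th of 55 at a ratio of 0.352, and glycine CCC was lower at 0.337. Of those 55 anticodon groups 9.09% were higher in every ESC library, glycine CCC among them, whereas cysteine GCA overlapped. By abundance, cysteine was in 7th place in ESC and 18th in Fb exosomes, and alanine in 8th and 11th.

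**Figure D1:**
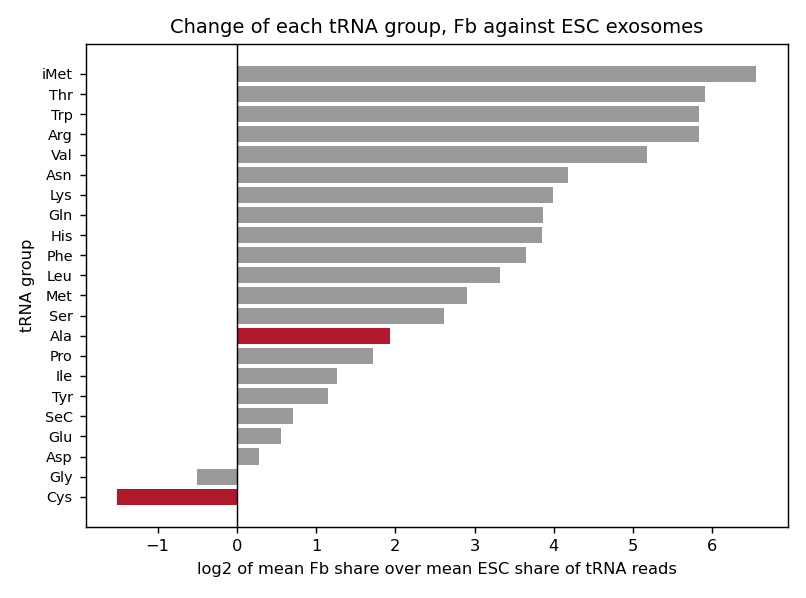
Bars give the log2 ratio of the mean Fb to the mean ESC share of tRNA reads (x axis) for the 22 tRNA groups with reads in Fb (y axis), each mean over 3 libraries, with alanine and cysteine in red. Cysteine lies lowest at -1.51 and alanine at 1.94, and only cysteine and glycine fall below 0 on this scale, while the alanine sign turns without glycine and glutamate reads in the total.

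The 2 amino acids were also set against each other within each library, which needs no scaling between libraries. Cysteine reads per alanine read were 1.76, 1.50 and 1.34 in ESC and 0.544, 0.0660 and 0.0767 in Fb. The lowest ESC value was above the highest Fb value, and the means were 1.53 ± 0.214 and 0.229 ± 0.273 (SD, n = 3), 6.70-fold higher in ESC. The exact two-sided permutation p was 0.1, or 0.2125 after adjustment over 17 compositions. Fb replicate 1 stood apart from the other Fb libraries, and without it the Fb over ESC ratio of these means was 0.0465, against 0.149 with it. Without the row tRNA-Cys-GCA-27-1 it was 0.189.

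The direction of a share depended on what it was a share of. Within tRNA reads other than glycine and glutamate, alanine held 2.15%, 1.85% and 1.21% in ESC and 0.118%, 0.441% and 0.239% in Fb, so that on this scale it was lower in every Fb library. Cysteine on the same scale held 2.72% ± 1.09 in ESC and 0.0373% ± 0.0241 in Fb (SD, n = 3), lower in every Fb library. Per 1000000 mature miRNA reads, of which the Fb libraries had only 49019 to 177990 against at least 1392859 in ESC, both were higher in every Fb library. Cysteine was then at 1116 ± 541 in ESC and 7072 ± 9104 in Fb (SD, n = 3).

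By anticodon, all 3 common alanine tRNAs had higher mean levels in Fb exosomes, and AGC differed most in fold of the means. That lead rested on Fb replicate 2, and the AGC mean in Fb was 238 ± 187 tRNA-RPM (SD, n = 3). The AGC copies, 23 rows, summed to 43.6, 58.0 and 20.6 tRNA-RPM in ESC and 75.6, 443 and 195 in Fb, a ratio of 5.83 of the means. The CGC copies, 10 rows, were the most even within ESC at 24.5, 23.6 and 20.5, and reached 66.7, 117 and 98.5 in Fb, a ratio of 4.11. Both anticodons were higher in every Fb library, as were 63.6% of the 55 anticodon groups of all tRNAs. The exact two-sided permutation p of each was 0.1, and 0.1375 after adjustment over those 55.

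The 11 TGC rows summed to 64.7, 86.0 and 27.2 tRNA-RPM in ESC and 77.2, 205 and 143 in Fb, with a ratio of 2.39. Here Fb replicate 1 lay below ESC replicate 2, and the exact permutation p was 0.2. In assigned-RPM the TGC groups did not overlap, as in 65.5% of the 55 anticodon groups, which were higher in every Fb library. Alanine GGC, with 4 rows, stayed at 0.550 to 1.71 tRNA-RPM in ESC and 0.0357 to 1.72 in Fb, with overlapping groups.

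Nearly all cysteine reads were of the 60 GCA rows, at 235, 252 and 93.4 tRNA-RPM in ESC and 120, 50.5 and 33.5 in Fb. The single row with another anticodon, tRNA-Cys-ACA-1-1, held about 1 read in each ESC library and at most 0.04 read in an Fb library, below the floor of 3 reads in all 6. For both amino acids that floor was 0.337 to 0.514 tRNA-RPM. The exact 95% binomial intervals of the library values reached at most 8.55% of the value for alanine and 15.0% for cysteine. The reads carry no molecular identifiers, so these intervals and floors cover counting error only. The alanine and cysteine sums of libraries within a group differed by more, except cysteine in ESC replicates 1 and 2. There the intervals overlapped, at 224 to 246 and 242 to 263 tRNA-RPM.

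**Figure D2:**
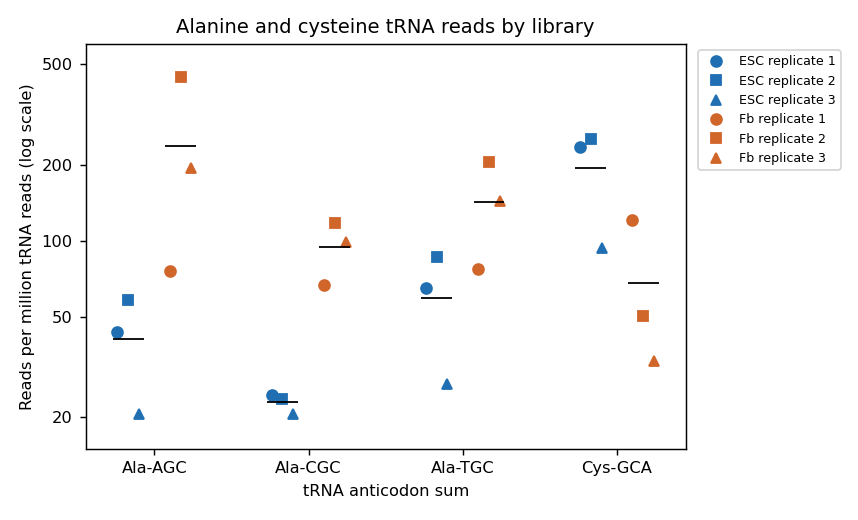
Points give the tRNA-RPM (y axis, log scale) of the 4 main anticodon sums (x axis) in each library, blue for ESC and orange for Fb, and black lines give the group means. The AGC and CGC points of Fb all lie above those of ESC, while for cysteine GCA Fb replicate 1 at 120 lies above ESC replicate 3 at 93.4. These are shares of tRNA reads, and both directions turn under other totals.

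Model fits across all rows of the files gave a different scale for the same sums. In edgeR's quasi-likelihood test with TMM factors, the alanine sum was 4.35 higher in Fb on the log2 scale (SE 1.37, adjusted p = 0.0790) and the cysteine sum changed by 0.06 (SE 0.89, adjusted p = 0.984). Neither of the 2 sums passed, where 9.99% of 2864 rows and 65.0% of the 20 other tRNA sums did. At an unadjusted p under 0.05 the alanine sum was 1 of 2, and DESeq2 called it (adjusted p = 5.45e-04) while limma called 0 of 2. The sign of the cysteine sum turned with the scaling, to -1.39 with library totals and -1.51 on tRNA rows alone, neither past the threshold in edgeR. The TMM factors were 0.224 to 2.16 in Fb against 1.64 to 1.65 in ESC, and the median log2 change of all rows was -0.07 with them and -0.83 with library totals.

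Of the 4 anticodon sums tested, alanine CGC rose in Fb by 4.24 on the log2 scale (SE 1.15, edgeR adjusted p = 0.0412), and the other 3 did not pass. AGC gave 5.06 (SE 1.48, edgeR adjusted p = 0.0568), TGC 3.58 (SE 1.25, edgeR adjusted p = 0.110) and cysteine GCA 0.05 (SE 0.91, edgeR adjusted p = 0.984). Across all rows 6.85% of 2889 were called higher in Fb, and among the 43 sums of other tRNAs 65.1%. The CGC call was lost without any 1 of the ESC libraries, Fb replicate 2 or Fb replicate 3. It was also lost with library totals, in limma and with the replicate number as a block (edgeR adjusted p = 0.260). The sign of cysteine GCA turned with library totals, to -1.38.

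**Figure D3:**
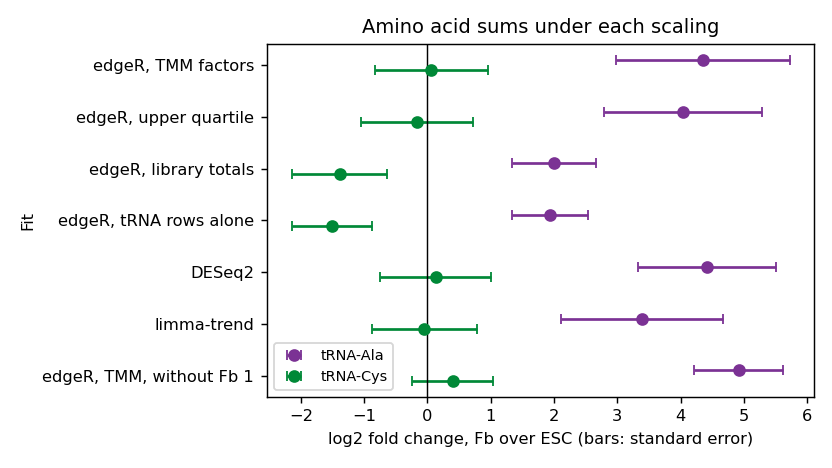
Points give the log2 fold change of Fb over ESC (x axis) of the alanine (purple) and cysteine (green) sums in each fit (y axis), and bars give the standard error over 3 libraries a group, or 2 for Fb without replicate 1. Alanine lies above 0 in all 7 fits, from 1.94 to 4.91, whereas cysteine lies on either side of 0, from -1.51 to 0.40.

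Within alanine, different isodecoders led in the ESC and Fb libraries. TGC made up 48.5%, 51.1% and 38.8% of alanine reads in ESC and 34.9%, 26.8% and 32.8% in Fb, lower in every Fb library. The means were 46.1% ± 6.46 and 31.5% ± 4.21 (SD, n = 3), and the exact two-sided permutation p was 0.1 (adjusted p = 0.2125). AGC made up 32.7%, 34.5% and 29.4% in ESC and 34.2%, 57.9% and 44.5% in Fb, with overlapping groups and an exact permutation p of 0.2 (adjusted p = 0.34). The AGC difference of the means, 13.3 percentage points, was 7.14 without Fb replicate 2. CGC held 20.6% ± 7.89 in ESC and 22.7% ± 7.44 in Fb (SD, n = 3).

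AGC-3, the most abundant alanine isodecoder over all 6 libraries, made up 2.07%, 5.78% and 7.33% of alanine reads in ESC and 11.8%, 29.1% and 17.2% in Fb. TGC-2 followed with 3.35%, 5.09% and 6.09% in ESC and 14.9%, 21.1% and 26.6% in Fb. CGC-2 held 4.39%, 5.02% and 5.65% in ESC and 24.7%, 12.6% and 18.8% in Fb. These 3 have different anticodons, and each was higher in every Fb library, by 3.73-fold to 4.30-fold of the means. AGC-14 was near absent in ESC at 0.0318%, 0.200% and 1.23% and ranged from 4.67% to 12.6% in Fb.

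TGC-1 went the other way within alanine, at 19.2%, 25.2% and 15.6% of alanine reads in ESC and 10.4%, 2.94% and 3.22% in Fb. The 6 named isodecoders had the highest mean tRNA-RPM over all 6 libraries, a ranking that favours those high in Fb. Others were not compared this way. TGC-6 was at 20.3 ± 11.0 tRNA-RPM in ESC and 5.81 ± 6.00 in Fb, and AGC-1 at 11.7 ± 11.0 and 25.5 ± 9.53 (SD, n = 3). Both overlapped between the groups. AGC-3, TGC-2, CGC-2, AGC-14 and TGC-1 each had an exact two-sided permutation p of 0.1 and an adjusted p of 0.2125 over the 17 compositions. AGC-2 varied more between libraries than between groups, from 1.95% to 12.8% in ESC and from 2.56% to 9.30% in Fb. The exact 95% binomial intervals of these alanine shares reached at most 4.14 percentage points in ESC and 2.40 in Fb. Without Fb replicate 2, the difference in the AGC-3 share was 9.48 percentage points, against 14.3 with it.

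Within cysteine, a single isodecoder led in ESC exosomes. GCA-27, which has 1 copy, made up 56.5%, 59.9% and 48.4% of cysteine reads in ESC and 51.7%, 6.48% and 16.3% in Fb. Fb replicate 1 lay inside the ESC range and the other Fb libraries far below it, so the groups overlapped (exact permutation p = 0.2, adjusted p = 0.34). GCA-3 held 4.12%, 4.51% and 3.99% in ESC and 7.20%, 62.8% and 47.5% in Fb, higher in every Fb library (exact permutation p = 0.1, adjusted p = 0.2125). Its lead over the other cysteine isodecoders was thus limited to Fb replicates 2 and 3.

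GCA-4, with 29 copies, held 21.4% to 28.7% of cysteine reads in ESC and 8.11% to 24.5% in Fb. GCA-15 held 3.66% ± 0.298 in ESC and 3.84% ± 0.909 in Fb (SD, n = 3). GCA-5 ranged from 0.728% to 3.67% in ESC and from 0.768% to 14.6% in Fb, and GCA-8 from 1.49% to 5.19% and from 0.0982% to 2.69%. These last 4 isodecoders overlapped between the groups. The exact 95% binomial intervals of the cysteine shares reached at most 3.61 percentage points in ESC and 7.24 in Fb, where fewer cysteine reads were counted.

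**Figure D4:**
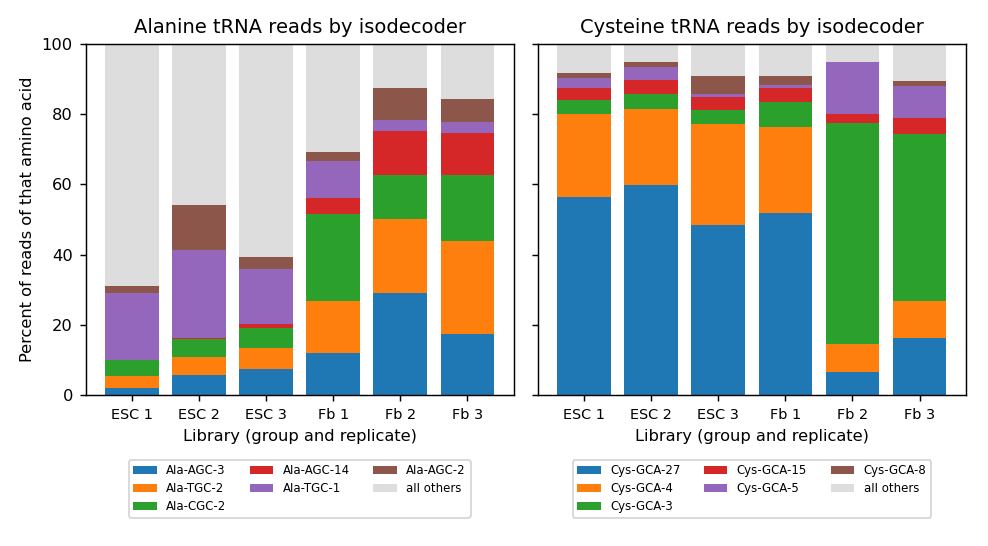
Stacked bars give the percent of alanine reads (left) or cysteine reads (right) in each library (x axis) that belonged to the 6 most abundant isodecoders and to all others (grey). AGC-3, TGC-2, CGC-2 and AGC-14 widen in the Fb bars of alanine, and GCA-3 fills 62.8% and 47.5% of the cysteine bars of Fb replicates 2 and 3.

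The number of copies with reads was then counted. At least 1 estimated read was held by 34, 38 and 32 of the 48 alanine copies in ESC and 36, 22 and 17 in Fb. Of the 61 cysteine copies 52, 49 and 51 held at least 1 read in ESC and 52, 7 and 8 in Fb. Fb replicate 1 matched the ESC libraries in both counts, and the exact two-sided permutation p was 0.3 for alanine and 0.4 for cysteine. The mean difference of Fb from ESC was -9.67 alanine and -28.3 cysteine copies, and -15.2 and -43.2 without Fb replicate 1. The alanine difference was -5.67 without Fb replicate 3.

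With any value above 0 counted, the cysteine copies numbered 58 to 60 in ESC and 53 to 59 in Fb, so the drop in Fb replicates 2 and 3 was one to fractions of a read. Over all 6 libraries, 11 alanine and 5 cysteine copies held at least 1 read in each. Values stayed under 1 read in every library for 6 alanine copies, 4 of them at 0 throughout, and for 7 cysteine copies. The fewest copies that together held 90% of alanine reads numbered 16, 10 and 16 in ESC and 10, 7 and 8 in Fb. For cysteine they numbered 33, 28 and 35 in ESC and 35, 5 and 19 in Fb.

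The counts of cysteine copies have to be read with the way reads were divided. By their names the 29 copies of GCA-4 share 1 mature sequence, and in each library 26 to 29 of them held 1 of only 2 values, equal after rounding to 0.01 read. In ESC replicate 1 all 29 held 14.89 or 15.04 reads, in Fb replicate 1 28 held 6.77 or 7.77, and in Fb replicate 2 28 held 0.49 or 0.62. The family summed to 433, 482 and 219 reads in ESC and 211, 28.7 and 20.6 in Fb. Copies holding the same divided value therefore lay above or below 1 read together. The exceptions were few, such as tRNA-Cys-GCA-4-12 with 127.9 reads in ESC replicate 2 and tRNA-Cys-GCA-4-1 with 13.6 reads in Fb replicate 2, where the other 28 copies held under 1.

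**Figure D5:**
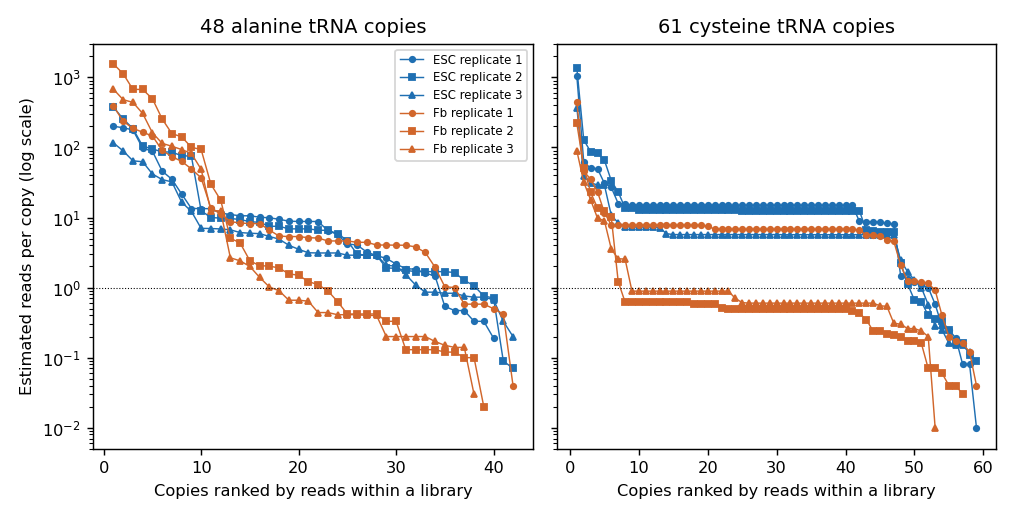
Points give the estimated reads of each copy (y axis, log scale) ranked from the highest within a library (x axis), for 48 alanine copies (left) and 61 cysteine copies (right), with ESC in blue, Fb in orange and a dotted line at 1 read. Copies at 0 are not drawn. The cysteine curves run flat over most copies, near 15 reads in ESC replicate 1 and below 1 read in Fb replicates 2 and 3.

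Of the 109 copies only 21 had enough reads to be tested singly, 13 of alanine and 8 of cysteine, and copies of 1 isodecoder are uncertain because they share reads. In edgeR 7 rose in Fb exosomes and 1 fell, where 8.17% of 2999 rows rose and 3.63% fell, and of 136 other tRNA copies 55.1% rose and 2.21% fell. A copy low in both groups could not enter this count. Moreover 5 of the 8 called copies had under 10 reads in every library of the lower group, so they passed the filter only through the group in which they were high and the count supports nothing about the members as a whole. All 8 also passed with no filter on low counts. Without ESC replicate 1, 2 or 3 or without Fb replicate 3 edgeR called none of the rows in the files, members included. Without Fb replicate 1 it called 13 member copies of 56 tested, where 17.3% of all 3405 rows and 73.4% of 158 other tRNA copies were called. Summed by isodecoder, 6 rose and 1 fell of 24 tested, where 8.36% of 2977 rows rose and 3.73% fell, and of 111 other tRNA isodecoders 64.9% rose and 0.901% fell. Each called isodecoder has 1 copy and is the same row as a called copy, so this count is not a further result. Those with under 10 reads in the lower group again passed the filter only through the other group.

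tRNA-Ala-AGC-7-1 had 0.515, 0.325 and 0.493 tRNA-RPM in ESC and 6.91, 14.4 and 17.8 in Fb (edgeR adjusted p = 0.0140). tRNA-Ala-AGC-14-1 had 0.0424, 0.337 and 0.857 in ESC and 10.3, 96.1 and 52.4 in Fb (edgeR adjusted p = 0.0171). tRNA-Ala-TGC-4-1 had 0.0796 to 0.727 in ESC and 1.90, 13.4 and 8.36 in Fb (edgeR adjusted p = 0.0188). Each of the 3 had at most 7 reads in an ESC library and was under the floor of 3 reads in 1, so these copies were tested only because they were high in Fb and no fold is given. For all 3 the highest ESC library was below the lowest Fb library, as for 23.1% of 455 tRNA copies with reads.

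tRNA-Ala-CGC-2-1 had 5.86, 8.43 and 3.95 tRNA-RPM in ESC and 54.6, 96.4 and 82.3 in Fb, a log2 change of 5.83 (SE 1.29, edgeR adjusted p = 0.0194). tRNA-Ala-TGC-2-1 had 4.47, 8.56 and 4.26 in ESC and 32.9, 161 and 116 in Fb (edgeR adjusted p = 0.0232), and tRNA-Ala-AGC-3-1 had 2.76, 9.72 and 5.13 in ESC and 26.2, 223 and 75.3 in Fb (edgeR adjusted p = 0.0292). These were the top copies of Fb replicates 1, 3 and 2. The top alanine copies of ESC, tRNA-Ala-TGC-1-1 in replicates 1 and 2 and tRNA-Ala-CGC-5-1 in replicate 3, did not pass. tRNA-Ala-TGC-1-1 was at 25.6, 42.3 and 10.9 in ESC and 23.0, 22.5 and 14.0 in Fb, and tRNA-Ala-AGC-2-1 at 1.20, 20.9 and 2.03 and at 5.14, 70.9 and 27.8 (edgeR adjusted p = 0.396 and 0.132).

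The member that fell was tRNA-Ala-AGC-10-1, with 11.3, 9.65 and 7.66 tRNA-RPM in ESC and 0.646, 0.293 and 0.0703 in Fb. All ESC values lay above all Fb values, as for 13.0% of 455 tRNA copies. It passed in edgeR (adjusted p = 0.0164), but was tested only because it was high in ESC, and 2 of its Fb values lay under the floor of 3 reads, so no fold is given. Of the 20 AGC copies with reads, 10 had a higher and 10 a lower mean in Fb. The median log2 ratio of Fb to ESC tRNA-RPM was -0.63 over the 42 alanine copies with reads in Fb and -1.61 over 60 such cysteine copies, while the alanine sum was 1.94. tRNA-Ala-AGC-10-1, tRNA-Ala-AGC-14-1 and tRNA-Ala-AGC-7-1 passed in all 8 other fits that kept every library. Each passed in only 2 of the 6 fits with 1 library left out. All 3 were tested only through the group in which they were high, so these refits add no support.

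Among cysteine copies, only tRNA-Cys-GCA-3-4 passed, higher in Fb (edgeR adjusted p = 0.0165). Its 6.27 to 8.72 reads in ESC were below the filter's count of 10, so it was tested only because of its Fb reads and no fold is given. It had 1.11, 0.704 and 0.894 tRNA-RPM in ESC and 6.42, 31.5 and 15.3 in Fb, and was the top cysteine copy of Fb replicates 2 and 3 with 62.3% and 45.8% of cysteine reads. The other 3 copies of the same isodecoder did not follow it, since tRNA-Cys-GCA-3-1 was at 6.32, 7.38 and 1.03 in ESC and 0.791, 0.175 and 0.437 in Fb. Its values in Fb replicates 2 and 3 lay under the floor of 3 reads. Summed over its copies, GCA-3 gave a log2 change of 3.56 (SE 1.19, edgeR adjusted p = 0.0886) and did not pass. Of the 7 cysteine isodecoders tested 0 passed. tRNA-Cys-GCA-27-1, the top cysteine copy of the ESC libraries and of Fb replicate 1, was at 133, 151 and 45.3 in ESC and 62.2, 3.27 and 5.48 in Fb. Its log2 change was -1.77 (SE 0.85, edgeR adjusted p = 0.261). With 1 library left out it ranged from -2.31 to -1.49 (edgeR adjusted p = 0.0437 to 0.586). The lowest p came without Fb replicate 1, where 17.3% of all rows and 73.4% of other tRNA copies were called.

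The remaining cysteine copies named by abundance did not pass. tRNA-Cys-GCA-4-12 was at 1.89, 14.4 and 3.59 tRNA-RPM in ESC and 0.945, 0.0702 and 0.102 in Fb (edgeR adjusted p = 0.0537). Its Fb reads were 6.77, 0.49 and 0.6, below the filter's count of 10. It was thus tested only because it was high in ESC, and no fold is given. tRNA-Cys-GCA-15-1 ranged from 3.55 to 9.77 in ESC and 1.43 to 4.90 in Fb, and tRNA-Cys-GCA-5-1 from 0.681 to 9.27 and from 0.924 to 7.39. tRNA-Cys-GCA-8-1 was at 3.76 to 4.85 in ESC, and Fb replicate 1 at 3.24 again lay nearer to ESC than the other Fb libraries. Those were at 0.0496 and 0.441, both under the floor of 3 reads.

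The mitochondrial tRNAs were read beside the nuclear ones. mt-Ta had 30, 38.8 and 39.7 reads in ESC and 6, 12 and 12.8 in Fb, or 3.45 ± 0.398 and 1.33 ± 0.553 assigned-RPM (SD, n = 3). Its ESC values lay above its Fb values, the opposite order to nuclear alanine tRNA on that scale, yet edgeR with TMM factors gave a log2 change of 0.51 (SE 0.83, adjusted p = 0.807). mt-Tc had 11, 14 and 14.4 reads in ESC and 8, 20 and 8 in Fb, and the groups overlapped.

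Other RNAs made by RNA polymerase III or tied to tRNA processing were given by a list of 11 named RNAs, the 2 mitochondrial tRNAs among them. Of 10 tested, 1 passed in edgeR and was lower in Fb exosomes, as were 3.63% of all rows tested. The one that fell was Vaultrc5, the vault RNA, at 433 ± 173 assigned-RPM in ESC and 18.1 ± 14.5 in Fb (SD, n = 3), with a log2 change of -3.45 (SE 0.98, edgeR adjusted p = 0.0487). Rpph1, the RNA of RNase P, which trims the 5′ end of tRNA precursors, was at 45.5 ± 4.51 and 28.9 ± 20.9 assigned-RPM (SD, n = 3) with an edgeR adjusted p of 0.736. Of 180 5S ribosomal RNA rows 19 were tested, of which 7 rose in Fb (edgeR), where 8.17% of all rows tested did, and these near-identical rows may share reads.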

How the data were processed

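Titles put 3 small RNA libraries in each group, ESC and Fb. SeraMir columns and the CleanTag kit were used, per the labels' protocols. FastQC, cutadapt and the build GRCm38 are named in the submitters' processing notes. No source used here names the aligner, the counter or the strand setting, or says how multi-mapping reads were divided. The deposited values are the authors' estimated counts per RNA. Of the nonzero member values 97.8% to 100% were fractional, so near-identical copies share reads.

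Member rows were summed by amino acid, anticodon and isodecoder and divided by all tRNA reads or all assigned reads. Differences of group means were tested by exact permutation, two-sided (scipy 1.17.1, Benjamini-Hochberg adjustment). Counts rounded to whole numbers were fitted with all other rows in edgeR 4.0.16 under R 4.3.3, by its quasi-likelihood test at an adjusted p of 0.05. Scaling was by TMM, and filterByExpr kept rows at its settings of 10 (count) and 15 (total). Standard errors were the log2 change divided by the root of its F statistic. Alternatives were upper-quartile factors, library totals, DESeq2 1.42.0, limma-trend 3.58.1, other filters, tRNA rows alone, other totals, the replicate number as a block, and each library left out. Shares without tRNA-Cys-GCA-27-1 and without ESC replicate 3 and Fb replicate 1 together, and anticodon overlap with counts rounded or a library left out, are alternatives chosen after seeing the data.

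The text names the amino acid and anticodon sums, up to 6 isodecoders and 6 copies of each amino acid with the highest mean share of tRNA reads, and up to 5 calls a direction by p. The copies tRNA-Ala-CGC-2-1, tRNA-Ala-TGC-2-1 and tRNA-Ala-AGC-3-1 are named by abundance, and tRNA-Ala-CGC-5-1 and tRNA-Cys-GCA-3-1 were named after their values were seen. So were the alanine isodecoders TGC-6 and AGC-1 and the glycine CCC sum. The members and lists were chosen with earlier results of these data known. On simulated data for Fb against ESC, with 2493 rows tested, edgeR recovered 19.8% of 91 rows changed 4-fold and 95.8% of 95 changed 16-fold, with 7 calls among 2307 unchanged rows. The simulation gave every row 1 common dispersion, changes in random directions and libraries that differed only in their totals. The Fb libraries had TMM factors from 0.224 to 2.17 in the anticodon fit, so these rates need not hold for the data. RefSeq and GENCODE M21 gave positions and sequences.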

Additional observations from a re-analysis of the deposited data

How the results depend on the processing

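The Fb over ESC ratio of the alanine share of tRNA reads fell to 0.154 within tRNA reads other than glycine and glutamate. For cysteine the Fb over ESC ratio was 0.383 with assigned reads as the total and 6.34 with mature miRNA reads as the total. At a minimum of 10 reads the difference in alanine copies was 0, with a mean of 12 in each group. Without 1 library the member anticodons of at least 10 reads whose groups do not overlap numbered 2 to 5, with 5 without Fb replicate 1. Over all 55 anticodon groups with any reads, 85.5% did not overlap in that case, and 74.5% to 78.2% without another library. With every library the share was 72.7%, and the members of at least 10 reads were alanine AGC and CGC. The alanine sum in edgeR passed with no filter at 3.80, with a minimum count of 50 at 3.11 and on tRNA rows alone at 1.94, in DESeq2 at 4.42, and ranged from 2.90 to 4.91 with 1 library left out, passing without Fb replicate 1.

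The cysteine sum (0.06) was -1.39 with library totals, -0.17 with upper-quartile factors, -0.050 in limma, -0.39 with no filter, -0.84 with a minimum count of 50 and -1.51 on tRNA rows alone, and -0.76 to 0.40 without 1 library. In the same order the cysteine GCA sum was -1.38, -0.17, -0.060, -0.40, -0.89 and -1.51, and -0.77 to 0.37. Library totals and tRNA rows alone also turned tRNA-Ala-TGC-1-1 (-0.31 and -0.40) and tRNA-Cys-GCA-5-1 (-0.47 and -0.52). Without 1 library tRNA-Cys-GCA-5-1 ranged from -0.086 to 2.52 and tRNA-Cys-GCA-15-1 from -0.57 to 0.15. Where a sum turned, the cause was not tested.

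Anticodon sums called numbered 2 with upper-quartile factors, no filter, a minimum count of 50 or tRNA rows alone, 3 in DESeq2, 0 in limma and 0 to 3 without 1 library. The calls over all rows moved too, from 10.5% of rows to 16.5% in DESeq2, 6.75% in limma, 80.9% among tRNA rows alone and 0.0% to 16.1% without 1 library. They were 12.1% with upper-quartile factors, 5.69% with no filter and 26.0% with a minimum count of 50. Single copies called numbered 13 in DESeq2 and with no filter, 5 in limma and 0 to 13 without 1 library, where all rows gave 18.0%, 6.4%, 8.24% and 0.0% to 17.3% called. Same-numbered libraries deviated with correlations of 0.00961, 0.0880 and -0.00157 over 2999 rows, so the numbers were not taken to pair them. With the replicate block the cysteine sum was -0.037 and its GCA sum -0.047, and 3 single copies and 0 anticodon sums were called (alanine CGC adjusted p = 0.260 in edgeR), where 4.5% of all rows were called in the anticodon fit and 5.97% in the fit of single copies. No called copy or anticodon sum changed direction in these fits. In Fb replicates 2 and 3, with 353 and 196 cysteine reads, most cysteine copies lay under the floor of 3 reads.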
